A study of Drosophila melanogaster with 2 samples.

Results

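The genes described here encode the cytosolic factors of translation initiation, elongation and release. They were chosen by name, as every protein-coding gene whose symbol starts with eIF, eEF or eRF, and 54 of the 13968 protein-coding genes on the 7 main chromosome arms met that rule. Binding of Ada2b near these genes was measured by chromatin immunoprecipitation and sequencing (ChIP-seq), in which protein-bound DNA is recovered with an antibody and sequenced. The material was whole embryos of *Drosophila melanogaster* aged 0 to 18 h from a transgenic strain, Ada2b-GFP, in which an insertion targeting Ada2b supplies an Ada2b-eGFP fusion. The descriptions name an anti-GFP antibody, whereas the antibody field of the labels reads Ada2b. There were 2 biological replicates of this 1 group, so conditions were not compared, and the labels do not say whether untagged Ada2b was also present. The embryos pooled many ages and cell types, and binding in few cells and weak binding in many cannot be told apart. Depth per library is not known from peak lists.

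Ada2b is an adaptor protein of the SAGA complex, in which Gcn5 acetylates histones at promoters. Initiation factors bring the small ribosomal subunit, the initiator tRNA and the capped mRNA together and find the start codon. Elongation factors deliver aminoacyl-tRNAs and move the ribosome along, and release factors end the chain at a stop codon. Most cells need these factors, and in the early embryo several cap-binding proteins and their inhibitors also control maternal mRNAs.

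The authors deposited 8 peak lists. The conservative list (4797 peaks) was made from both replicates and kept peaks whose ranks repeat, as judged by the irreproducible discovery rate (IDR). Another thresholded list of the series held 4990 peaks, and the lists of single replicates held 3762 and 3020. The other 4 lists rank all candidate peaks, most of them below the threshold, and held 53185 to 92003 candidates. A promoter peak here is a peak of a thresholded list with its summit within 500 bp of an annotated transcription start site (TSS) of the gene. The signal of a peak is a value of the authors' peak caller. It was not normalised between lists, so signals were ranked within a list, and no value of 1 list is set against a value of another as a change.

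Promoter peaks, which make a gene bound in what follows, lay at 16 of the 54 translation factor genes in the conservative list (29.6%, 95% Clopper-Pearson interval 18.0 to 43.6), against 17.5% of all protein-coding genes. The other thresholded list had 15 (27.8%, against 17.9%). Replicate 1 had 13 (24.1%, against 14.2%) and replicate 2 also had 13 (24.1%, against 13.2%), which gives 24.1% ± 0 for translation factors and 13.7% ± 0.714 for all genes (SD, n = 2). The share of the translation factors was above that of all genes in each of the 4 lists, which come from the same 2 replicates. The background lay just below the interval in the conservative list and in replicate 2 (interval 13.5 to 37.6). It lay within the interval in the other thresholded list (16.5 to 41.6) and in replicate 1 (13.5 to 37.6). No test was made, since the genes are not replicates and there is 1 group. Of the 16 genes, 11 had a promoter peak in both replicate lists, 4 in the list of 1 replicate and 1 in neither. Over all 2444 genes with a promoter peak in the conservative list, these counts were 1499, 568 and 377. A further 0 members had one in a replicate list, against 251 of all genes.

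Counts varied between the factor classes. Release factors had a promoter peak at 2 of 2 genes, eEF1 subunits at 2 of 5 and the group of eEF2 and eEFSec at 1 of 2, and the single genes for eIF5A (eEF5) and eIF6 each had one. With eEF5 counted among them, elongation and release factors together had 6 of 10 (60%, interval 26.2 to 87.8), against 9 of 43 for initiation factors without eIF6 (20.9%, interval 10 to 36.0). Each replicate list had 5 of 10 and 7 of 43. These larger groups were not planned, and the bound gene eIF6 is in neither. Within initiation, eIF3 subunits had 5 of 16, the eIF2 group 2 of 5, eIF1 and eIF1A 1 of 2, and eIF5 and eIF5B 1 of 2. The eIF4 family had 0 of 13 and eIF2B 0 of 5 in the conservative list. Pooled, 0 of 18 genes allows a share of up to 16.7% by the limit of 3 counts, with an interval that reaches 18.5% and so holds the background. This pool was not planned and joins the only classes with 0, so its 0 follows from that choice. The classes are small, and the intervals of the 2 larger groups overlap. All intervals cover counting error only.

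**Figure D1:**
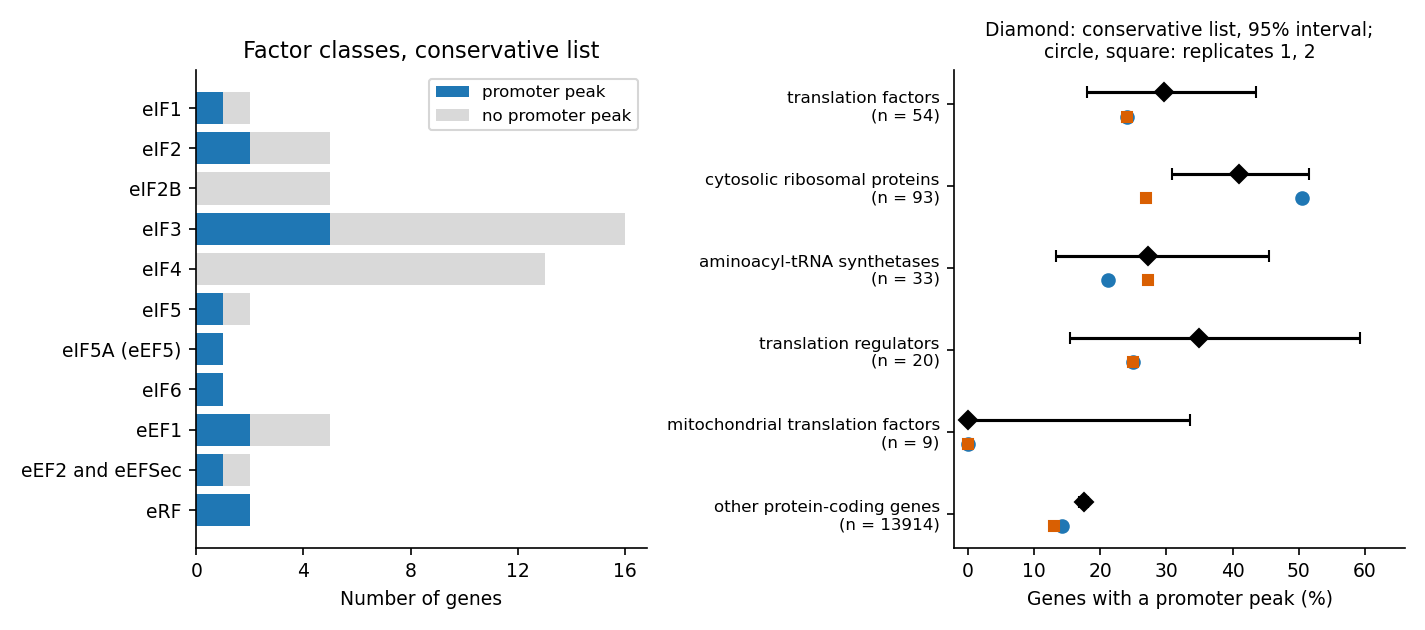
Left, number of genes in each factor class with and without a promoter peak in the conservative list. Right, share of genes with a promoter peak in percent, as a diamond for the conservative list with its 95% Clopper-Pearson interval, a circle for replicate 1 and a square for replicate 2, where the translation factors stand at 29.6%, 24.1% and 24.1%, above the 17.5% of other protein-coding genes in the conservative list.

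Sequences around the summits are shown because the element most frequent near these peaks is an exact match to the DRE, the site of the factor DREF, a regulator of growth and proliferation genes in Drosophila. A DRE lay within 100 bp of the summit at 6 of the 16 bound members (37.5%), namely eEF1gamma, eIF1, eIF2A, eIF3a, eIF6 and eRF1, against 187 of the 2444 genes with a promoter peak (7.65%). The first 3 lines show 101, 101 and 29 bases centred on the summit and hold the DRE in capitals. The last 3 lines show eIF3h, eRF3 and, over 29 bases, eIF5B, 3 of the strongest peaks found in both replicates, which have none. All are read 5′ to 3′ on the strand of the gene in the dm6 assembly, from chr3R:29220067-29220167 (+) for eEF1gamma, chr3L:3222995-3223095 (+) for eIF1, chr3R:4433925-4433953 (−) for eIF3a, chr2L:5052409-5052509 (−) for eIF3h, chr2L:12434322-12434422 (+) for eRF3 and chr3L:3460744-3460772 (−) for eIF5B.
eEF1gamma: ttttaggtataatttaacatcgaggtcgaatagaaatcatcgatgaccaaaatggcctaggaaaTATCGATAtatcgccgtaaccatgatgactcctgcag
eIF1: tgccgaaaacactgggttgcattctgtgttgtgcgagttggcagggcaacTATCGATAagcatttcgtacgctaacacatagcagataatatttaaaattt
eIF3a: cggcaactatcggcctgaacTATCGATAa
eIF3h: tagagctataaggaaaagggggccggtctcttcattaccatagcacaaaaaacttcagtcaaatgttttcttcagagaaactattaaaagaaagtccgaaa
eRF3: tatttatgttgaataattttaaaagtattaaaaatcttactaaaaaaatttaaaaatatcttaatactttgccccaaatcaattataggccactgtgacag
eIF5B: agaggcgataaatggttcccgtaaacagc

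The centre of the DRE lay 3.5 bp from the summit at eIF1, 9.5 bp at eIF3a, 12.5 bp at eIF2A, 17.5 bp at eEF1gamma, 42.5 bp at eRF1 and 90.5 bp at eIF6. The median was 15 bp over these 6 genes, against 58.5 bp over the 187 genes with a promoter peak and a DRE in the same window. So 4 of the 6 matches lay within 20 bp of the summit of the conservative list. This range was not planned, and its share was not computed over all genes. Summits of the 2 replicates differed by a median of 19.0 bp over the 11 members with a peak in both lists. eIF2A, among the matches within 20 bp, had no promoter peak in either replicate list. At eIF3a the summits of the 2 replicates lay 93 bp apart, and the distance given is that of the conservative list. At eIF1 the peak also lies near RpL28, a ribosomal protein gene, and the match belongs to the interval between both starts.

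Translation factor promoters without a peak also held the DRE. In the window of 250 bp before to 50 bp after the most 5′ TSS, 15 of 54 members held it (27.8%), against 1307 of 13968 genes (9.36%). It was in 5 of the 16 promoters with a peak (31.2%) and in 10 of the 38 without (26.3%). Put the other way, 5 of 15 members with a DRE had a promoter peak (33.3%), against 11 of 39 members without (28.2%). Among all genes the shares were 25.7% with a DRE and 16.6% without. The 60 bases upstream of the start are given for eRF1, which had a peak, and for eEF1delta, eIF2alpha and eIF2gamma, which had none, to show where the element sits in promoters with and without a peak. It begins 25 bp before the start in eRF1, 29 bp in eEF1delta, 13 bp in eIF2alpha and 9 bp in eIF2gamma. The regions are chr3L:20348295-20348354 (+), chr2L:10232447-10232506 (+), chrX:16446994-16447053 (−) and chr3R:15263459-15263518 (−).
eRF1: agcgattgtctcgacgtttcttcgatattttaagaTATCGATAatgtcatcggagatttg
eEF1delta: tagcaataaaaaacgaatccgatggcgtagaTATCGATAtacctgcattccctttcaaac
eIF2alpha: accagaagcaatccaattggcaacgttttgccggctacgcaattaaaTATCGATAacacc
eIF2gamma: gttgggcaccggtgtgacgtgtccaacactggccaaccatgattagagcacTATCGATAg

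**Figure D2:**
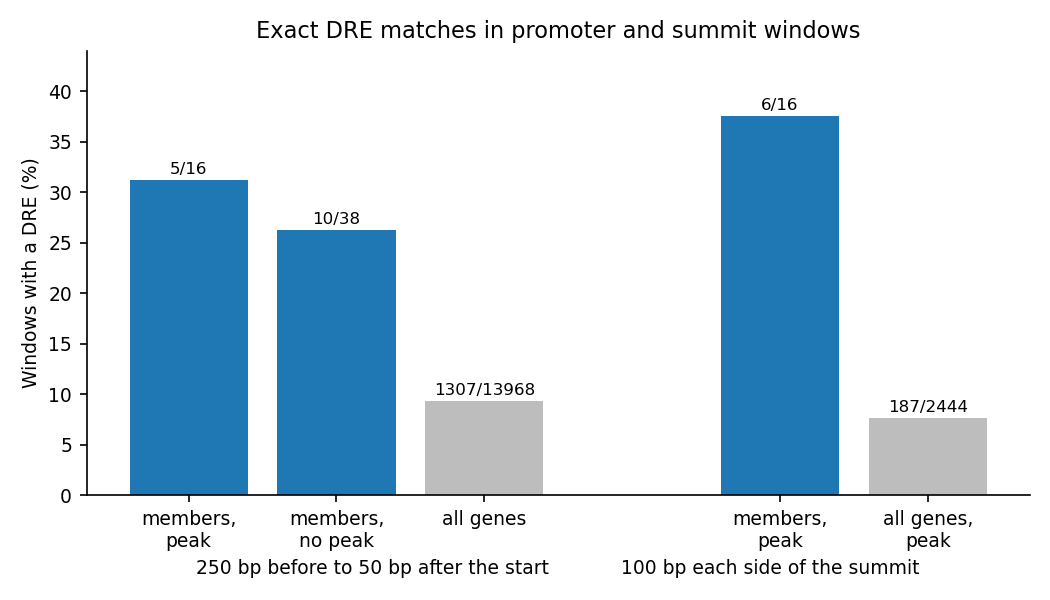
Share of windows with an exact DRE match, in percent, with the count above each bar; on the left the promoter windows of members with a peak, members without a peak and all genes, on the right the windows of 100 bp each side of the summit for members and for all genes with a promoter peak. The member bars stand at 31.2%, 26.3% and 37.5%, and those of all genes at 9.36% and 7.65%.

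The DRE searched was TATCGATA, which reads the same on both strands, so each match was counted once. Of the other elements searched, the core of core promoter motif 1 (GGTCACAC, either strand) lay within 100 bp of the summit at 2 of 16 members, eEF1alpha1 and eIF2A, against 3.07% of all genes with a promoter peak. In the promoter window it was in 0 of the 16 members with a peak and in 6 of the 38 without, against 7.69% of all genes. TATAAA (either strand) was in 11 of 16 promoter windows with a peak and 14 of 38 without, against 45.8% of all genes, but near 3 of 16 summits, against 40.7%. GAGAGAG was in 0 and 1 of these windows and CACGTG in 2 and 2, against 5.86% and 4.2% of all genes. A stretch like the TCT initiator of translation genes (CTTTT on the strand of the gene, starting within 5 bases of the TSS) was in 0 of 16 and 3 of 38, namely eIF3f1, eIF3i and eIF4A, against 1.93%. The median GC content of the windows around the summits was 40.0% for members and 33.8% for all genes with a promoter peak. A match is a description of letters and is not evidence of a factor's binding.

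Among the initiation factors, the group of eIF1 and eIF1A, which keep the small subunit open and make start codon choice strict, had 1 bound gene. eIF1 had a signal of 56.3 in replicate 1 and 41.7 in replicate 2, and 96.8 in the conservative list (percentile 46.2 among genes with a promoter peak, peak chr3L:3222890-3223199). Its summit lay 296 bp upstream of eIF1 and 85 bp upstream of RpL28 on the opposite strand, so the peak is nearer to RpL28. eIF1A had no promoter peak, and its strongest candidate had a signal of 23.2 in the ranked list of the conservative peaks (percentile 40.3 among genes with a candidate).

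eIF2 carries the initiator tRNA, and its 3 subunit genes eIF2alpha, eIF2beta and eIF2gamma had no promoter peak in any thresholded list. The 2 bound genes of this group, eIF2A and eIF2D, encode proteins that bind the initiator tRNA or the recycled subunit outside the eIF2 complex. eIF2D had 37.9 in replicate 2, a candidate of 51.0 below the threshold in replicate 1 (−log10 IDR 1.71, where 2 is the threshold) and 92.8 in the conservative list, 90 bp upstream of its start. eIF2A had 52.3 in the conservative list with the summit in its 5′ UTR, and in both replicates only a candidate below the threshold, 35.3 (−log10 IDR 1.41) and 19.2 (0.32). The count of 2 of 5 in this group was therefore 0 in replicate 1 and 1 in replicate 2. The strongest candidates of eIF2alpha and eIF2gamma were 34.8 and 26.6, and eIF2beta had none near its start.

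eIF2B, the exchange factor that recharges eIF2 with GTP and the target of the integrated stress response, had no promoter peak at any of its 5 subunit genes. Their strongest candidates had signals of 6.32 (eIF2Bbeta) to 34.8 (eIF2Bdelta), at a median percentile of 51.8 among genes with a candidate. Between them were eIF2Bgamma with 11.0, eIF2Balpha with 27.7 and eIF2Bepsilon with 29.8. eIF2Bbeta lies 688 bp downstream of the strongest peak in the conservative list (signal 2109), whose summit is 31 bp upstream of Ugalt, a UDP-galactose transporter gene on the opposite strand. It is the only member whose nearest peak is 501 to 1000 bp away.

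eIF3, the largest initiation factor and a scaffold on the small subunit, had promoter peaks at eIF3a, eIF3b, eIF3c, eIF3h and eIF3m. eIF3c had 83.9 in replicate 1 and 84.4 in replicate 2, and 168.8 in the conservative list, 36 bp upstream of its start. eIF3h had 96.1 and 73.0, and 164.9 in the conservative list. Its summit lay in an intron 321 bp downstream of a start of eIF3h and 384 bp upstream of senju on the opposite strand.

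eIF3a had 41.9 in replicate 1 and 39.0 in replicate 2, and 80.9 in the conservative list, and its peak is shared with CG1074. The summit lay 44 bp from eIF3a and 26 bp from CG1074 in the conservative list, but 32 bp from eIF3a and 102 bp from CG1074 in replicate 1. eIF3m had 38.6 and 26.8, and 66.2 in the conservative list, at percentile 4.78 ± 5.37 over the replicates (SD, n = 2). It shares its peak with CG8323, and the other thresholded list lacks this peak. eIF3b had 32.7 in replicate 1, a candidate of 29.3 below the threshold in replicate 2 and 50.5 in the conservative list, where the summit lay 164 bp downstream of its start in coding sequence, with a weaker peak of 6.17 at 376 bp.

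The remaining 11 subunit genes of eIF3 had no promoter peak in the 4 thresholded lists. In the pairs of paralogs neither copy had one: eIF3d1 and eIF3d2, eIF3f1 and eIF3f2, and eIF3g1 and eIF3g2. Candidates were 35.0 at eIF3f1 and 18.0 at eIF3f2, and 16.3 at eIF3g1 and 24.3 at eIF3g2. eIF3d2 had 13.5, and eIF3d1 had a candidate of 23.0 in replicate 1 alone of the replicates. Of the other subunit genes, eIF3e had 29.5, eIF3j 15.7, eIF3k 18.3 and eIF3l 18.2. eIF3i had none in the ranked list of the conservative peaks and 24.9 in replicate 1. Over the whole eIF3 class, 14 of 16 genes had a candidate, at a median percentile of 49.3.

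The eIF4 family binds the cap, unwinds the leader and recruits the ribosome, and 0 of its 13 genes had a promoter peak in any thresholded list. In the ranked list of the conservative peaks, candidates near a start were found at 8 of the 13 (61.5%, against 64.5% of all genes without a promoter peak). Their median signal was 18.2 and their median percentile 25.0, against 30.0 for members without a promoter peak. All members had 63.2, but they include the bound genes. The median percentile was 30.5 in replicate 1 and 53.8 in replicate 2. Members without a promoter peak had 32.7 and 48.1, and all members 62.6 and 63.2. eIF4E1, the general cap-binding protein, had 12. Of the other eIF4E genes, eIF4E5 had 19.8 and eIF4E6 had 14.9, while eIF4E3, eIF4E4 and eIF4E7 had none in that list. The scaffold gene eIF4G1, on chromosome 4, had no candidate in any of the 4 ranked lists and eIF4G2 had 12.9. The helicase cofactor genes eIF4H1 and eIF4H2 had 21.3 and 16.7, and eIF4B had none.

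A pair of eIF4 genes had candidates past the IDR threshold that the thresholded lists lack. eIF4EHP encodes a cap-binding protein that does not recruit eIF4G and represses maternal mRNAs in the early embryo. Its candidate had 326.4 in replicate 1 and 258.8 in replicate 2, and 582.1 in the ranked list of the conservative peaks, where it was 97th by signal, with a −log10 IDR of 5 in all 4 ranked lists, the highest value they give. Its summit lay 267 bp upstream of eIF4EHP and 109 bp upstream of CG18428 on the opposite strand. Of all genes without a promoter peak in the conservative list, 582.1 was the highest candidate signal. The 101 bases around it, chr3R:24109177-24109277 (−), are shown because this candidate decides the count of the class, with TATAAA on either strand in capitals and no DRE.
eIF4EHP: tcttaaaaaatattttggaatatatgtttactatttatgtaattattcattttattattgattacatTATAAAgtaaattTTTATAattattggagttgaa

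eIF4A, the helicase, had 31.1 in replicate 1 and 17.8 in replicate 2, and 51.8 in the ranked list of the conservative peaks, at 43 to 45 bp upstream of a start, with −log10 IDR values of 1.21, 2.06 and 1.95. Its strongest candidate in replicate 2 was another, of 27.6 (−log10 IDR 2.07) at 151 bp upstream of a start. In the ranked list of the other thresholded peaks it reached 2.52. The conservative list lacks 108 of the 4904 candidates past its threshold on the arms. Counted with them, 17 of 54 members had a promoter peak and 1 of 13 eIF4 genes, in an alternative chosen after the values were seen. Thresholded lists were made with 1 more input than ranked lists, per the deposited notes, and what it removed was not tested.

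For subunit joining, eIF5B, the GTPase that joins the large subunit, had 93.5 in replicate 1 and 68.4 in replicate 2, and 159.5 in the conservative list, in its 5′ UTR. eIF5, the GTPase activator of eIF2, had a single candidate within 500 bp of a start, of 8.65 in replicate 2. eEF5, the hypusine-containing eIF5A that eases peptide bond formation at stretches such as prolines, had 52.8 and 39.8, and 85.2 in the conservative list, 6 bp upstream of its start.

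eIF6, which keeps free large subunits from joining and takes part in making them, had the strongest peak of the 54 genes. It had 587.8 in replicate 1 and 598.8 in replicate 2, and 1183 in the conservative list at chr2R:23850273-23850537, rank 13 of all peaks. The summit lay 98 or 99 bp upstream of the start in each list, and the percentile was 99.2 ± 0.364 over the replicates (SD, n = 2). Among promoter peaks of members, eIF6 was first and eEF1gamma next in each replicate list.

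**Figure D3:**
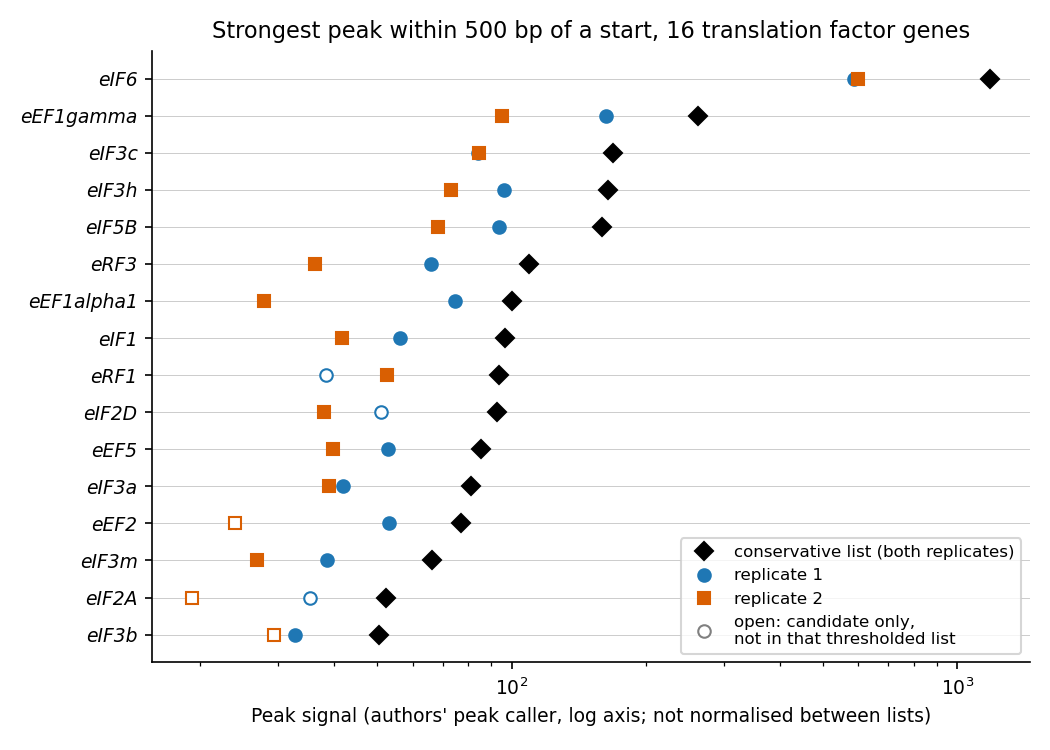
Signal of the strongest peak near a start for the 16 bound members, on a log axis, in the conservative list (diamonds), replicate 1 (circles) and replicate 2 (squares); open symbols are candidates that the thresholded list of that replicate lacks. eIF6 stands apart at 587.8 and 598.8 in the replicates, and eIF2A is open in both.

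The elongation factor eEF1 delivers aminoacyl-tRNAs. eEF1gamma, a structural subunit of its exchange complex, had 162.5 in replicate 1 and 95.3 in replicate 2, and 262.0 in the conservative list at chr3R:29220036-29220201, 55 bp upstream of its start. The percentile was 79.5 ± 8.39 over the replicates. eEF1alpha1, the GTPase that carries the tRNA, had 74.6 and 27.9, and 100.2 in the conservative list, and its percentiles of 54.6 and 1.71 were the farthest apart among the 11 genes with a peak in both replicate lists. Its summit lay 40 bp upstream of an internal start, in an intron of the longer transcripts. The paralog eEF1alpha2 had no promoter peak and a candidate of 17.1. Neither did the exchange subunit genes eEF1beta, with a candidate of 37.5, or eEF1delta, with one of 8.76 in the ranked list of the other thresholded peaks alone.

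eEF2, the translocase, had 53.0 in replicate 1, a candidate of 24.0 below the threshold in replicate 2 (−log10 IDR 1.21) and 77 in the conservative list, in its 5′ UTR. eEFSec, the factor for selenocysteine, had no candidate near its start in any list. Both release factor genes had a peak in the conservative list and in replicate 2, and 1 of the 2 in replicate 1. eRF3, the GTPase, had 66.1 in replicate 1 and 36.2 in replicate 2, and 109.3 in the conservative list, and eRF1, which reads the stop codon, had 52.6 in replicate 2, a candidate of 38.4 in replicate 1 (−log10 IDR 1.70) and 93.8 in the conservative list. eRF1 shares its peak with Rbbp5, 349 bp away, and eRF3 with SC35, 293 bp away.

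Apart from eIF6 at percentile 99.4, the bound members ranged in signal from percentile 4.81 (eIF3b) to 86.1 (eEF1gamma) of the conservative list. Their median percentile among genes with a promoter peak was 45.4 in the conservative list, 46.8 in replicate 1 and 26.5 in replicate 2 (36.7 ± 14.3 over the replicates, SD, n = 2). Of the 16 members, 6 share their peak with another gene (37.5%, namely eIF1, eIF3a, eIF3h, eIF3m, eRF1 and eRF3), against 54.3% of all genes with a promoter peak. At eIF1 the other gene's start was nearer in each list, and at eIF3a in the conservative list and replicate 2 but not in replicate 1.

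Summits at translation factor genes lay closer to the start than over all genes with a promoter peak. The median position was −59.5 bp (range −296 to 321 bp, negative upstream), against −136 bp over the 2444 genes with a promoter peak. It was −53.0 bp in replicate 1 and −63.0 bp in replicate 2, against −143 and −145 bp. A shared peak counted for each gene in reach, so the farther gene is included. Shared peaks were 37.5% for members and 54.3% for all genes with a promoter peak. With a peak counted for the nearest start alone, the member median was −59.5 bp, and the median over all genes was not computed. The part of shared peaks in this difference was not tested. In the conservative list 12 of 16 summits (75.0%) lay within 100 bp upstream, against 23.3% of all genes, a range chosen after the positions were seen. In replicate 1 this was 53.8% against 20.9% and in replicate 2 it was 76.9% against 21.6%. For the 11 genes with a peak in both replicate lists, the peaks overlapped in 11 of 11 cases and the summits differed by a median of 19.0 bp, against 17 bp over 1507 genes.

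**Figure D4:**
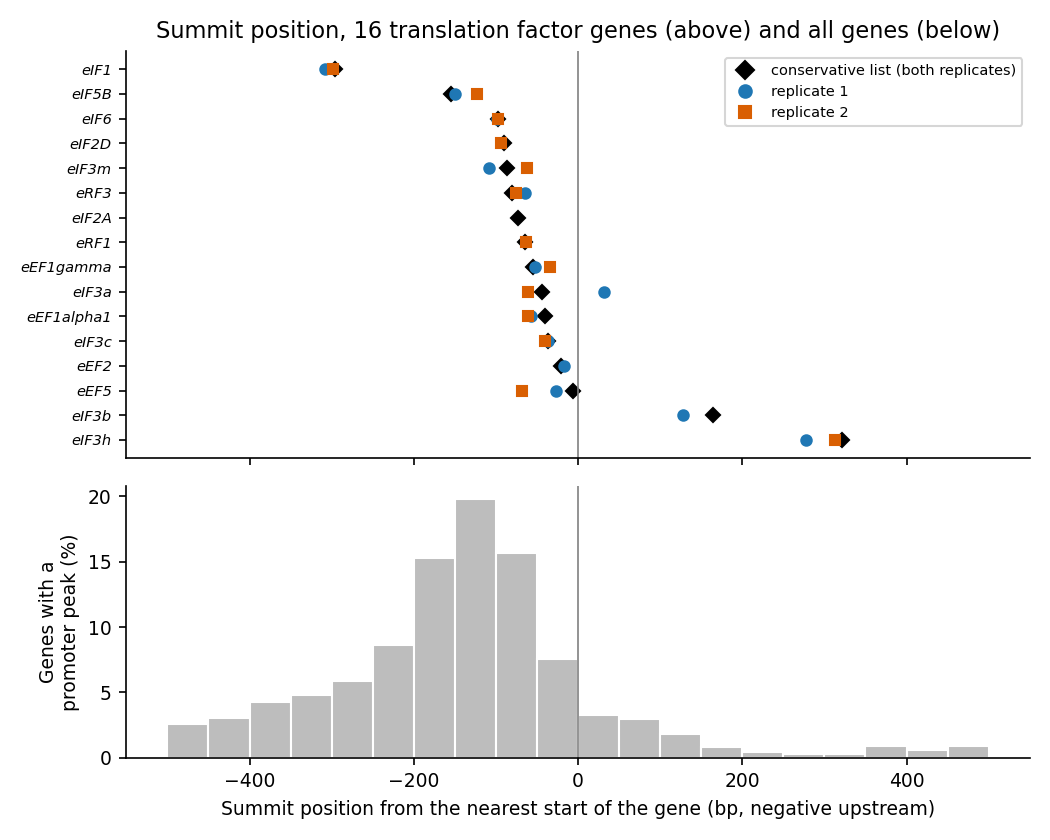
Summit position from the nearest start of the gene in bp, negative upstream; above, each of the 16 bound members in the conservative list (diamonds), replicate 1 (circles) and replicate 2 (squares), below, the share in percent of all 2444 genes with a promoter peak in bins of 50 bp. The members gather just upstream of 0 with a median of −59.5 bp, and the bars peak between −150 and −100 bp.

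Many translation factor genes have a neighbour that starts close by on the opposite strand. Such a divergent start within 500 bp upstream was found at 22 of 54 members (40.7%), against 27.3% of all genes. Promoter peaks lay at 9 of these 22 members (40.9%), against 7 of the 32 others (21.9%). Among all genes the shares were 33.1% and 11.6%. By arm, promoter peaks lay at 3 of 6 members on 2L (against 17.8% of all genes there), 6 of 13 on 2R (16.8%), 4 of 12 on 3L (19.0%), 3 of 15 on 3R (18.2%), 0 of 7 on X (15.7%) and 0 of 1 on 4 (5%). The part of the neighbouring start in these peaks was not tested.

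For the 38 members without a promoter peak, the nearest peak lay a median of 10665 bp from a start, and 28 of the 38 were over 5000 bp away. These distances were not computed for all genes, so whether they are usual for genes without a promoter peak is not known. In the ranked list of the conservative peaks, 27 of the 38 members had a candidate near a start (71.1%, against 64.5% of all genes without a promoter peak). The signals were 6.32 to 582 with a median of 19.8, against 22.4. Their median percentile was 30.0 in that list, 32.7 in replicate 1 and 48.1 in replicate 2. The 16 with a peak had a median of 95.3 there. eIF2beta, eIF4B, eIF4E3, eIF4G1 and eEFSec had no candidate within 500 bp in any of the 4 ranked lists.

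Most genes had a candidate of some strength near a start. In the ranked list of the conservative peaks 43 of 54 had a candidate near a start (79.6%, against 70.7%). In each replicate 38 had one (70.4%, against 61.9% in replicate 1 and 57.3% in replicate 2). Of these, 32 had a candidate in both replicates, and their signals had a Spearman rho of 0.867 across genes, which are not independent replicates. Over all 6255 such genes rho was 0.791. This correlation is a description, and the genes share libraries and mapping.

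**Figure D5:**
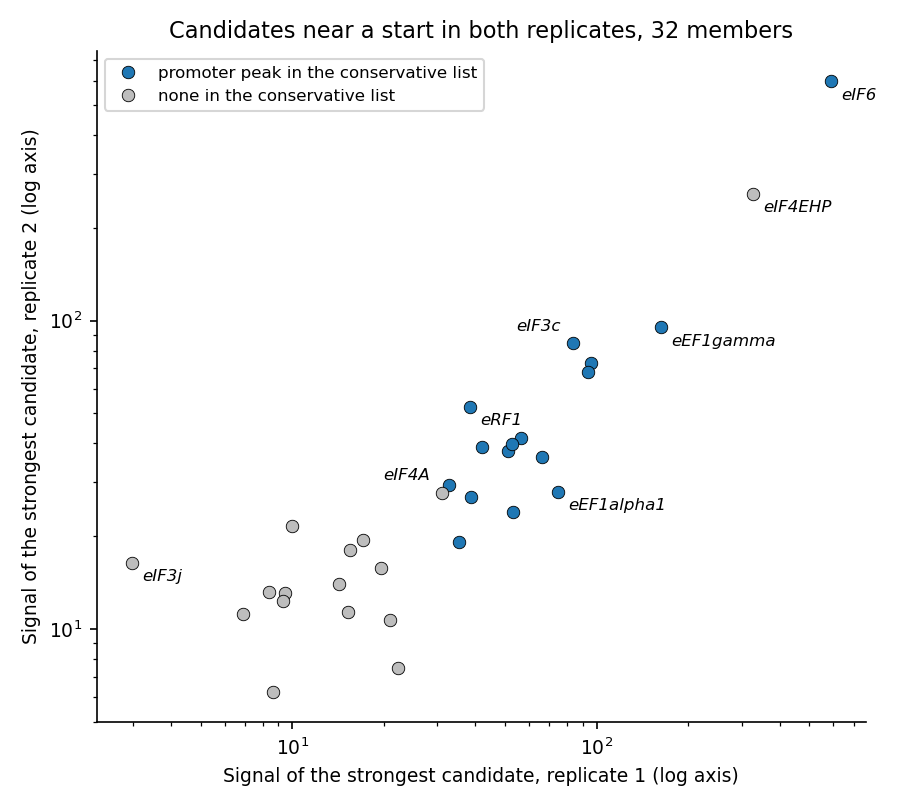
Signal of the strongest candidate within 500 bp of a start in replicate 2 against replicate 1, on log axes, for the 32 members with a candidate in both; blue points have a promoter peak in the conservative list and grey points have none. eIF6 is the highest point at 587.8 and 598.8, and eIF4EHP at 326.4 and 258.8 is the highest grey point.

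Peaks inside the genes were counted by their summits. In the conservative list 8 of 54 members had a summit between the gene's ends (14.8%, against 12.3%), as did 9 in the other thresholded list (16.7%, against 12.6%), 8 in replicate 1 (14.8%, against 10.5%) and 4 in replicate 2 (7.41%, against 8.88%). The share was thus above that of all genes in 3 of the 4 lists, but the interval of the conservative list (6.62 to 27.1) holds the background. With any overlap of a peak with the gene the share was 31.5%, against 18.2%. In 6 of the 8 the promoter peak was itself a peak inside: eIF2A, eIF3b, eIF3h, eIF5B, eEF1alpha1 and eEF2. With summits within 500 bp of any start left out, 3 members had a peak inside (5.56%, against 7.93%). Members with a peak inside had longer genes, with a median gene length of 4440 bp, against 1918 bp for the other 46. The median was 11204 bp over all genes with a peak inside, against 2164 bp over all protein-coding genes. By class the 8 were 1 of 5 in the eIF2 group, 2 of 16 in eIF3, 2 of 13 in eIF4, 1 of 2 in eIF5, 1 of 5 in eEF1 and 1 of 2 in eEF2 and eEFSec. Candidates of the ranked lists lay inside 48 of 54 members (88.9%, against 78.1%), 40 in replicate 1 (74.1%, against 69.8%) and 42 in replicate 2 (77.8%, against 66.8%).

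The longest of these genes, eIF4EHP and eIF5B, held most of the peaks away from starts. eIF4EHP had 3 intronic peaks in the conservative list, with signals of 234.8 at 9801 bp downstream of its start, 87.9 at 8077 bp and 84.0 at 39861 bp. The strongest of them had 135.3 in replicate 1 and 99.5 in replicate 2. eIF5B had 4 intronic peaks besides that near its start, the strongest with 243.7 at 27760 bp, which had 137.3 and 103.4 in the replicates. The others had 111.8, 88.5 and 58.3.

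eIF4G2 had 1 intronic peak, of 58.0 at 1049 bp, in the conservative list and in neither replicate list, and the summit also lies within CG33111 and CG34355. eIF3d1 had a peak of 50 inside its coding sequence, 579 bp from its start, in the other thresholded list but not in the conservative list.

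Other genes of translation, taken by lists chosen with earlier results known, are given for scale. Cytosolic ribosomal protein genes had a promoter peak at 38 of 93 (40.9%, interval 30.8 to 51.5), aminoacyl-tRNA synthetases at 9 of 33 (27.3%, interval 13.3 to 45.5) and translation regulators at 7 of 20 (35.0%, interval 15.4 to 59.2). Mitochondrial factors had 0 of 9, which allows up to 33.3%. Over all protein-coding genes the share was 17.5%. The intervals of the synthetases and the regulators hold that share, and the interval of the ribosomal proteins lies above it. The interval of the translation factors overlaps those of all these groups. The replicate shares of the translation factors were equal, whereas those of the ribosomal proteins were 50.5% and 26.9% (38.7% ± 16.7, SD, n = 2).

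The 7 bound regulators were Thor, mTor, larp, pAbp, HBS1, pelo and crc. The conservative list had no promoter peak at 4E-T, cup, mxt, Paip2, NAT1, S6k, DENR, MCTS1, Gcn2, PEK, PPP1R15, kra or pix. Whether the bound regulators share a role more than the others was not tested. Thor, the 4E-BP that blocks eIF4E1, had 42.2 in replicate 1 and 41.8 in replicate 2, and 76.3 in the conservative list, and mTor, the kinase that acts on it, had 64.8 and 60.4, and 126. larp, a regulator of terminal oligopyrimidine mRNAs, had 77.3 and 54.9, and 127. pAbp, the poly(A)-binding protein that contacts eIF4G, had 130 and 135, and 268, with the summit 487 bp downstream of a start. The remaining 3 were HBS1 and pelo, which rescue stalled ribosomes, and crc, the ATF4 of the stress response, with 73.9, 62.8 and 63.6 in the conservative list. HBS1 had no promoter peak in either replicate list, pelo had 32.8 in replicate 2 alone and crc had 39.8 in replicate 1 alone. The peaks of mTor, HBS1 and crc are shared with Vha68-1, CG12025 and CG46314.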

How the data were processed

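Peaks were made by the authors from alignments to dm6, from the pair of replicates for lists of the series and from 1 for the rest, per the file headers and notes. The sources used here name no aligner or peak caller, and the control was not analysed here. The signal of each peak and, in ranked lists, the −log10 IDR are as deposited by the authors. Series ranked lists were tied to thresholded lists by content: 100% of the conservative peaks are past the threshold of 2 in 1 of them.

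Genes came from Ensembl release 115, matched to RefSeq by symbol (54 of 54), and sequences from NCBI Release 6. A planned promoter table was not used here, and promoter windows were read from the genome. Members and lists were chosen with earlier results of these data known. A peak counted for every gene in reach. Every member is accounted for, with full values for those with a promoter peak in the conservative list. Where a count was 0, the limit is the share of 3 counts. Peak assignment was tested on simulated summits. Python 3.11.15, numpy 2.4.6, scipy 1.17.1 and matplotlib 3.10.9 were used.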

Additional observations from a re-analysis of the deposited data

Results flagged for a closer look

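A candidate peak near the start of eIF4EHP stood out in data that the counts of promoter peaks do not use. It was past the IDR threshold in the ranked lists and missing from the thresholded lists. Its signal was 582.1 in the ranked list of the conservative peaks, 326.4 in replicate 1 and 258.8 in replicate 2. The control was not analysed here, so no background value stands beside it.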

How the results depend on the processing

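No paired analysis was possible because there is 1 group and no comparison between conditions. Of 147 alternative values, 126 stayed within 1.5 times the reported count or within the SD over replicates, and 21 did not. Only the median summit position could change sign, and it did not. Class counts made up 110 of the 147 values, and classes of few genes have little room to move. With peaks at or above the median signal, 10 members had a promoter peak (18.5%, against 10.6% of all genes). The other alternatives gave 14 to 17, and each replicate alone 13, all above the share of all genes. Of the class counts, the eIF1 group had 0 with a 250 bp window or when a peak counted for the nearest start alone, eIF2B 1 with a 1000 bp window, and eEF1 1 with the most 5′ TSS. The stronger peaks left 1 in the eIF2 group, 2 in eIF3, 0 at eEF5 and 0 in the group of eEF2 and eEFSec. Leaving out either replicate gave 0 to 1 in the eIF2 group, 0 to 1 in the group of eEF2 and eEFSec and 1 to 2 for release factors. With the candidates past the threshold that the list lacks, chosen after seeing the data, eIF4 had 1. Members with a peak inside the gene numbered 4 with the stronger peaks (7.41%, against 7.54% of all genes), 17 with any overlap of the peak (31.5%, against 18.2%), 3 away from starts (5.56%, against 7.93%) and 4 to 8 without a replicate. The median signal percentile was 26.5 to 46.8 without a replicate. The median summit position was −72.0 bp with the stronger peaks and −49.5 bp with the most 5′ TSS. The causes were not tested. Depth is unknown, and classes of 1 to 5 genes change with a single peak.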
